A study of Drosophila melanogaster with 9 samples.

Results

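Glutathione transferases are described here in the head and thorax of adult female fruit flies on 3 diets. The genes were taken as those whose symbol in the array's annotation begins with Gst, a class letter and a number, where the probe set named no other gene. This gave 34 genes, read by 36 probe sets, out of 11983 genes that a probe set named singly. Where a gene had more than 1 probe set, the brightest on average was used. By class letter there were 11 Delta, 13 Epsilon, 3 Omega, 1 Sigma, 4 Theta and 2 Zeta genes. GstE8 was not analysed here.

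The 9 arrays (Affymetrix, 1 value per probe set) held 3 biological replicates of each diet: normal food, restricted food, and normal food to which resveratrol, a plant polyphenol, was added. All flies were Canton-S females, a common wild-type laboratory strain, at 10 days of age. Each array carried RNA pooled from at least 75 flies. What the diets contained and how much resveratrol was given are not stated in the sources used here. Dietary restriction and resveratrol are both studied for effects on lifespan, and each was set against the normal diet.

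Glutathione transferases join the tripeptide glutathione to reactive, often fat-soluble compounds, which can then be carried out of the cell. The Delta and Epsilon classes are insect expansions that lie largely in gene clusters and are best known for resistance to insecticides and for handling plant toxins and lipid peroxidation products. Omega, Sigma, Theta and Zeta classes also occur in vertebrates, where Zeta enzymes take part in tyrosine breakdown. Several fly members are targets of Cnc, the fly counterpart of Nrf2, which Keap1 holds in check.

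Values are log2 probe set levels throughout, and differences are log2 differences unless a fold is stated. A gene was tested if 3 or more arrays reached log2 4, a level below which the authors' background correction leaves little signal. Of the 34 genes, 29 passed, among them all 23 outside the Delta class. The 5 that did not were GstD4, GstD5, GstD6, GstD7 and GstD8. Tests were made with limma over all 8822 features of the array, and a gene passed at a Benjamini-Hochberg adjusted p under 0.05. A level compares the same gene between arrays, not one gene with another.

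Markers of several tissues, though not of all those listed, moved with the diets. The mean of 9 midgut markers lay between 8.13 and 9.31 on the normal diet, between 9.89 and 10.53 on the restricted diet and between 9.28 and 9.63 with resveratrol. The mean of 6 fat body markers lay between 12.47 and 12.82, between 13.49 and 13.68, and between 13.37 and 13.76 in the same order. For 5 neuron markers the ranges were 9.00 to 9.22, 8.49 to 8.54 and 9.04 to 9.19, and for 4 muscle markers 13.18 to 13.55, 12.86 to 12.93 and 12.99 to 13.24. The mean of the 3 eye markers and that of the 3 glial markers were also lower on every restricted-diet array than on any other array. For glia the margin was small, with 10.54 the highest restricted-diet mean and 10.55 the lowest with resveratrol. The 6 germline and ovary markers ranged from 6.74 to 7.61 on the normal diet, from 8.20 to 9.34 on the restricted diet and from 6.39 to 9.19 with resveratrol. The 5 markers listed for the Malpighian tubule, a site rich in detoxifying enzymes, stayed between 8.05 and 8.37 on all arrays. The means of the neuron, eye and muscle markers were well above log2 4 on every array, as the labelled head and thorax would give. Midgut and germline transcripts were present too, and the midgut trypsins alphaTry and betaTry read 15.12 to 15.75, near the top of the scale. In pooled tissue RNA, more cells of a type and more transcript per cell cannot be told apart. On the restricted diet 5 of 9 midgut and 3 of 6 fat body markers rose, 5 of 5 neuron, 3 of 3 eye, 2 of 4 muscle and 2 of 3 glial markers fell, and 0 of 6 germline and 0 of 5 tubule markers passed, where 5.27% of all features rose and 12.9% fell. The shifts of the midgut and fat body means were uneven across their markers. Among the midgut markers Npc2e and Mal-A4 rose by 4.79 and 3.33, Vha100-4 had a difference of 2.46 that did not pass, and the median of the 9 was 0.73. The trypsins alphaTry and betaTry had 0.14 and 0.20 and did not pass. On the normal diet Vha100-4 was at 3.44, 2.20 and 3.82, and Mal-A4 was at 3.03 on replicate 2. Levels under log2 4 thus enter the midgut means and these 2 differences. With resveratrol that median was 0.14, and GATAe had a difference of -0.84. Among the fat body markers Lsp2, Obp99b and fit rose by 3.89, 1.39 and 0.78, while apolpp, Yp1 and CG5966 had -0.01, 0.00 and -0.63 and did not pass. One more listed fat body marker, Fbp1, was at the bottom of the scale. The part of these markers in the results below was not tested.

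Flies on restricted food were compared with those on normal food to see which transferases differ when food is restricted. GstE3, GstE5, GstE7, GstE9 and GstE13 of the Epsilon class, GstO3 of the Omega class and GstT4 of the Theta class rose on the restricted diet. GstE3 rose most, 2.41-fold, and the other 6 rose between 1.21-fold and 1.60-fold. No Delta, Sigma or Zeta gene passed.

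In all, 7 of the 29 genes tested rose, 0 fell and 22 did not pass in limma, against 12 (41.4%) at an unadjusted p under 0.05. This is 24.1% of the 29, where 5.27% of all features passed as higher, 12.9% as lower and 18.2% either way. At an unadjusted p under 0.05 the share of all features was 37.7%, close to that of the family. The median difference of the 29 was 0.10, and that of all features was -0.05. The 3 restricted values lay above the 3 normal values for 11 of the 29 (37.9%, against 16.4% of all features), and below them for 4 (13.8%, against 28.4%). With normal-diet replicate 1 left out, 3 genes rose, and 4 did without normal-diet replicate 2, restricted-diet replicate 1 or restricted-diet replicate 3.

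GstE3 (CG17524) stood at 10.42, 10.26 and 10.76 on the normal diet, at 11.83, 11.78 and 11.64 on the restricted diet, and at 11.18, 10.91 and 11.01 with resveratrol. The 3 groups did not overlap, and resveratrol lay between the other two. The rise on the restricted diet was 1.27 ± 0.13 (SE; adjusted p = 0.00598), with a 95% interval of 1.95-fold to 2.99-fold. It passed with any 1 array left out, at 1.16 to 1.41.

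GstE5 (CG17527) was at 8.70, 8.68 and 8.79 on the normal diet and at 9.36, 9.46 and 9.39 on the restricted diet, with resveratrol at 8.78, 8.78 and 8.94. All restricted-diet arrays were above all others, and the resveratrol and normal arrays overlapped. The rise was 0.68 ± 0.07 (SE; adjusted p = 0.00598), or 1.60-fold.

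GstE7 (CG17531), an enzyme shown in vitro to act on isothiocyanates, read 9.71, 9.42 and 10.04 on the normal diet, 10.33, 10.50 and 10.29 on the restricted diet, and 9.92, 9.85 and 9.88 with resveratrol. The restricted arrays were again the highest, while the normal arrays were spread on both sides of the resveratrol arrays. The rise was 0.65 ± 0.14 (SE; adjusted p = 0.0233). The call ended without normal-diet replicate 1 or 2, or without any 1 restricted-diet array, with differences from 0.50 to 0.69.

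GstE9 (CG17534) was tight within each diet: 13.52, 13.53 and 13.62 on the normal diet, 13.87, 13.98 and 14.04 on the restricted diet, and 13.63, 13.79 and 13.80 with resveratrol. The 3 diets did not overlap. The rise on the restricted diet was 0.41 ± 0.07 (SE; adjusted p = 0.0132), or 0.39 (adjusted p = 0.0517) without normal-diet replicate 1. A second probe set for GstE9 stayed between 2.12 and 2.14 on all arrays, at the bottom of the scale, so the rise rests on 1 probe set.

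GstE13 (CG11784), which lies apart from the other Epsilon genes, was at 9.06, 8.99 and 9.10 on the normal diet, 9.29, 9.33 and 9.37 on the restricted diet, and 9.22, 9.38 and 9.21 with resveratrol. Both treated groups were above the normal arrays and overlapped each other. The restricted-diet rise of 0.28 ± 0.06 (SE; adjusted p = 0.0263) was the smallest of the 7. It no longer passed without normal-diet replicate 1 or 2, or without any 1 restricted-diet array (0.25 to 0.30).

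GstO3 (CG6776), of the class known for glutathione-dependent reduction of dehydroascorbate, was at 12.07, 11.98 and 12.21 on the normal diet, 12.56, 12.63 and 12.60 on the restricted diet, and 12.30, 12.28 and 12.33 with resveratrol. The 3 groups were apart in the same order as for GstE3. The rise was 0.51 ± 0.07 (SE; adjusted p = 0.00817), or 1.42-fold, and it passed with any 1 array left out.

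GstT4 (CG1681) read 11.64, 11.37 and 11.85 on the normal diet, 12.07, 12.10 and 12.05 on the restricted diet, and 11.97, 11.79 and 11.83 with resveratrol. The restricted arrays lay close together and above all others, and the normal arrays were spread more widely. The rise was 0.45 ± 0.12 (SE; adjusted p = 0.0343). The call ended without normal-diet replicate 1 or 2, any 1 restricted-diet array, or resveratrol replicate 2, with differences from 0.33 to 0.47.

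**Figure D1:**
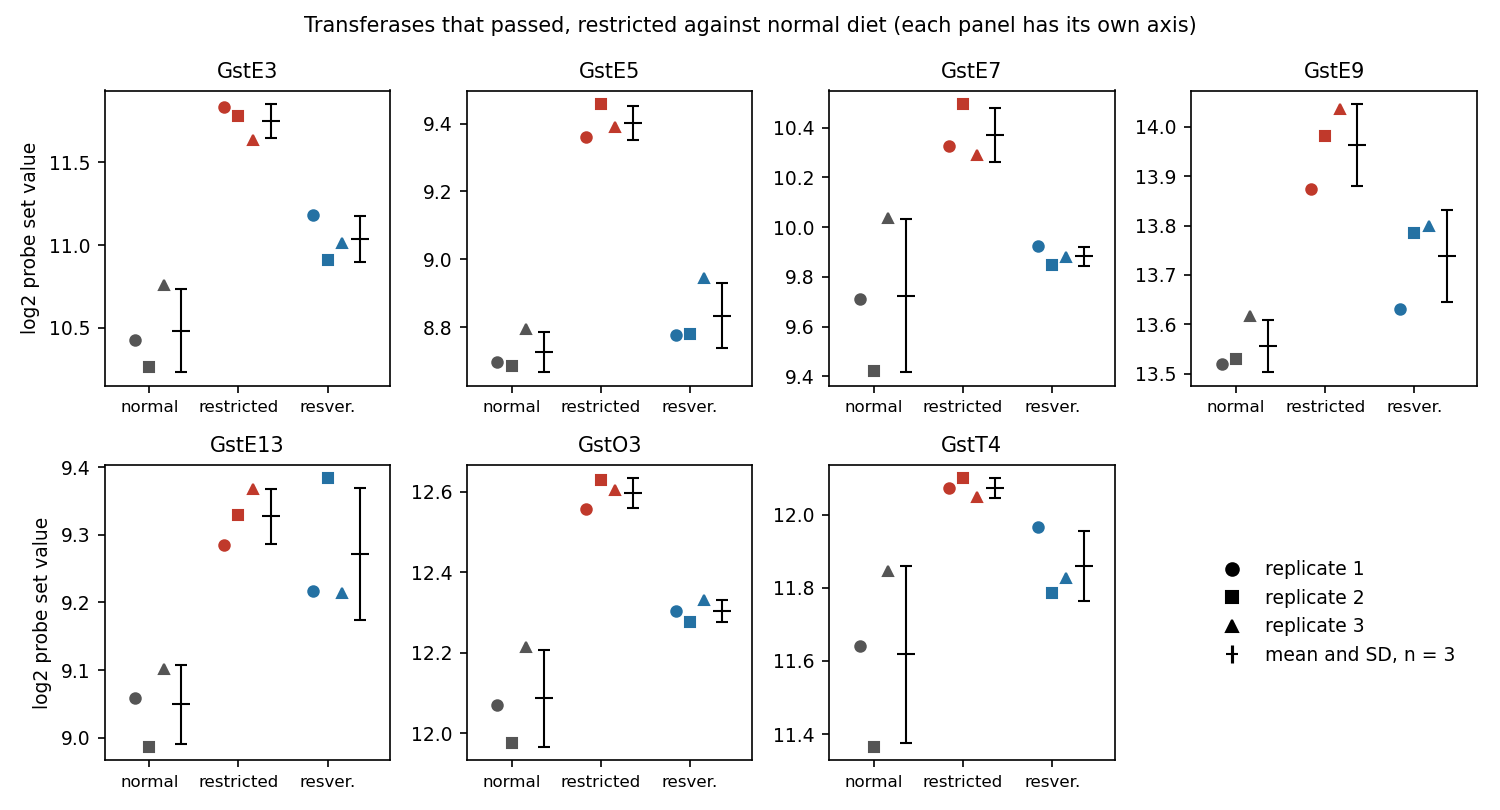
Log2 probe set values (vertical axis, its range set per gene) of the 7 transferases that passed for restricted against normal diet, by diet, with a symbol per replicate and the mean and SD (n = 3) beside them. In each panel the 3 restricted-diet points lie above the 3 normal-diet points, and normal-diet replicate 2 is the lowest point for all but GstE9.

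For 6 of these 7 genes the lowest value of all 9 came from normal-diet replicate 2, as it did for 9 of the 29 tested (31%). Over all features this array was lowest for 14%. The 7 genes were called as higher than on the normal diet, so a normal-diet array was likely to be their lowest. They make up 6 of the 9 genes, so the 31% and the 14% are not like for like. Without it the differences of the 7 genes ranged from 0.25 for GstE13 to 1.16 for GstE3, and GstE3, GstE5, GstE9 and GstO3 passed. The mean of the midgut markers was also lowest on this array, at 8.13, although mesh and GATAe were lowest on others. Vha100-4 and Mal-A4 read 2.20 and 3.03 on this array, under log2 4.

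The Epsilon class is mostly a run of neighbours. In the gene table GstE10, GstE1, GstE2, GstE3, GstE4, GstE5, GstE6, GstE7, GstE8 and GstE9 follow each other, each next to the last. The diet differences did not run evenly along this row. GstE3, GstE5, GstE7 and GstE9 rose, while their neighbours GstE2 and GstE4 had negative differences that did not pass.

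GstE2 (CG17523) stood at 8.31, 8.34 and 8.32 on the normal diet and at 7.47, 7.63 and 8.16 on the restricted diet, with resveratrol at 7.63, 8.32 and 8.48. The normal arrays were almost equal, and all restricted arrays were lower, by very unequal amounts. The difference was -0.57 ± 0.24 (SE; adjusted p = 0.127), with a 95% interval from -1.13 to -0.01. GstE4 (CG17525) had a difference of -0.38 (95% interval from -0.87 to 0.11) with overlapping groups.

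GstE6 (CG17530) was at 11.92, 11.96 and 12.13 on the normal diet and at 12.30, 12.14 and 12.28 on the restricted diet. The groups met without overlapping, and the difference of 0.24 ± 0.07 (SE; adjusted p = 0.0579) did not pass. GstE1 (CG5164), an enzyme that acts on the lipid peroxidation product 4-hydroxynonenal, had a difference of 0.10 (95% interval from -0.14 to 0.34).

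GstE10 (CG17522) had the second largest positive difference of the family and did not pass. It was at 7.90, 6.24 and 7.69 on the normal diet, at 8.38, 8.23 and 8.23 on the restricted diet, and at 6.62, 7.94 and 7.22 with resveratrol. The restricted arrays agreed closely and were above all others, while normal-diet replicate 2 and resveratrol replicate 1 were the lowest. The difference was 1.004 ± 0.47 (SE; adjusted p = 0.156), and without normal-diet replicate 2 it was 0.49 (95% interval from -0.31 to 1.28).

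**Figure D2:**
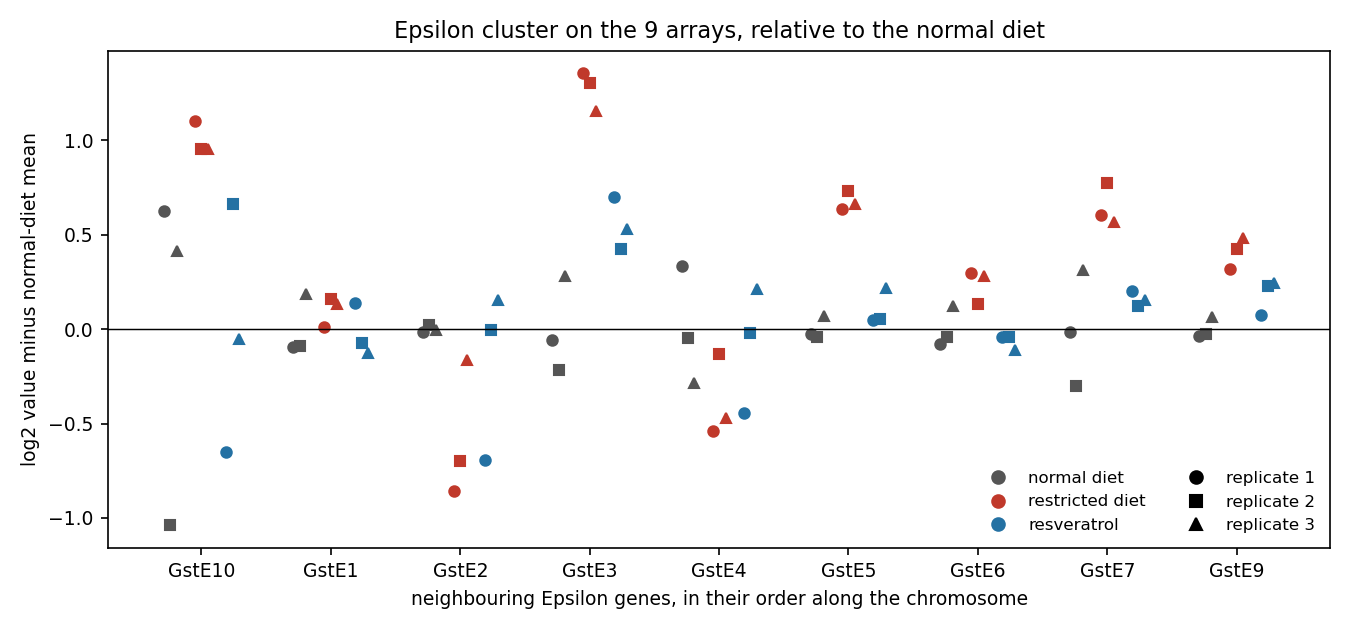
Log2 values of the 9 measured genes of the Epsilon cluster on each array, minus the gene's normal-diet mean (vertical axis), in their order along the chromosome. Restricted-diet points for GstE3, GstE5, GstE7 and GstE9 lie above 0, those for GstE2 and GstE4, on either side of GstE3, lie below it, and normal-diet replicate 2 is far down for GstE10.

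The remaining Epsilon genes lie elsewhere. GstE11 (CG5224) had a difference of -0.15 and GstE12 (CG16936) of 0.11, and neither passed. GstE14 (CG4688), known as Noppera-bo and needed for ecdysteroid synthesis in larvae, was at 5.55, 5.43 and 5.27 on the normal diet and at 4.97, 5.10 and 5.42 on the restricted diet, which overlapped. Its 95% interval ran from -0.61 to 0.11. Of the 13 Epsilon genes, 5 rose, 0 fell and 8 did not pass, where 5.27% of all features rose and 12.9% fell. Their median difference was 0.24.

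Most of the Delta class also lies in a cluster, and a single array stood apart for several of its genes. Of 6 genes tested, 0 passed in limma, against 1 at an unadjusted p under 0.05, and 5 had negative differences, with a median of -0.22. Of all features 5.27% rose, 12.9% fell and 37.7% had an unadjusted p under 0.05 in limma. Only 41.2% of all features had a positive difference. GstD2 (CG4181) was at 5.53, 8.19 and 6.07 on the normal diet, 5.34, 5.62 and 5.61 on the restricted diet, and 5.65, 6.26 and 5.65 with resveratrol. Normal-diet replicate 2 was far above the other 8 arrays, by 1.92 over the next highest. The restricted-diet difference was -1.07 ± 0.60 (SE; adjusted p = 0.230), and -0.28 (95% interval from -0.85 to 0.30) without that array.

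GstD3 (CG4381), the next gene along, showed the same array apart, with 9.20, 10.73 and 9.61 on the normal diet against 9.14, 9.04 and 9.56 on the restricted diet and 9.37, 9.38 and 9.27 with resveratrol. Its difference was -0.60 ± 0.35 (SE; adjusted p = 0.242), and -0.16 without normal-diet replicate 2. GstD5 (CG12242) read 5.30 on that array and between 2.13 and 2.18 on the other 8. It did not enter the tests, and a level below log2 4 has no order here.

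GstD1 (CG10045), the best studied fly transferase and able to degrade DDT, was at 13.93, 14.28 and 14.05 on the normal diet and at 13.93, 13.92 and 14.14 on the restricted diet. Normal-diet replicate 2 was the highest array here too, by 0.14. The difference was -0.09, with a 95% interval from -0.32 to 0.15. Over all features, normal-diet replicate 2 was at least 1 above both other normal arrays for 45 of 8822 (0.51%), GstD2 and GstD3 among them, and at least 1 below both for 165 (1.87%), GstE10 among them.

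GstD9 (CG10091) was the only Delta gene tested whose treated groups were apart from the normal arrays. It was at 10.35, 10.46 and 10.47 on the normal diet, 10.06, 10.24 and 10.25 on the restricted diet, and 9.93, 10.09 and 10.25 with resveratrol. Both treated groups lay below the normal arrays, and neither difference passed (-0.24, adjusted p = 0.104, and -0.33, adjusted p = 0.274). GstD10 (CG18548) and GstD11 (CG17639) had differences of 0.09 and -0.20 on the restricted diet, with overlapping groups. GstD4 (CG11512) stayed at 2.12 and GstD6 (CG4423) at 2.17 on all arrays. GstD7 (CG4371) stayed below log2 4 on every array and GstD8 (CG4421) reached it on 2.

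**Figure D3:**
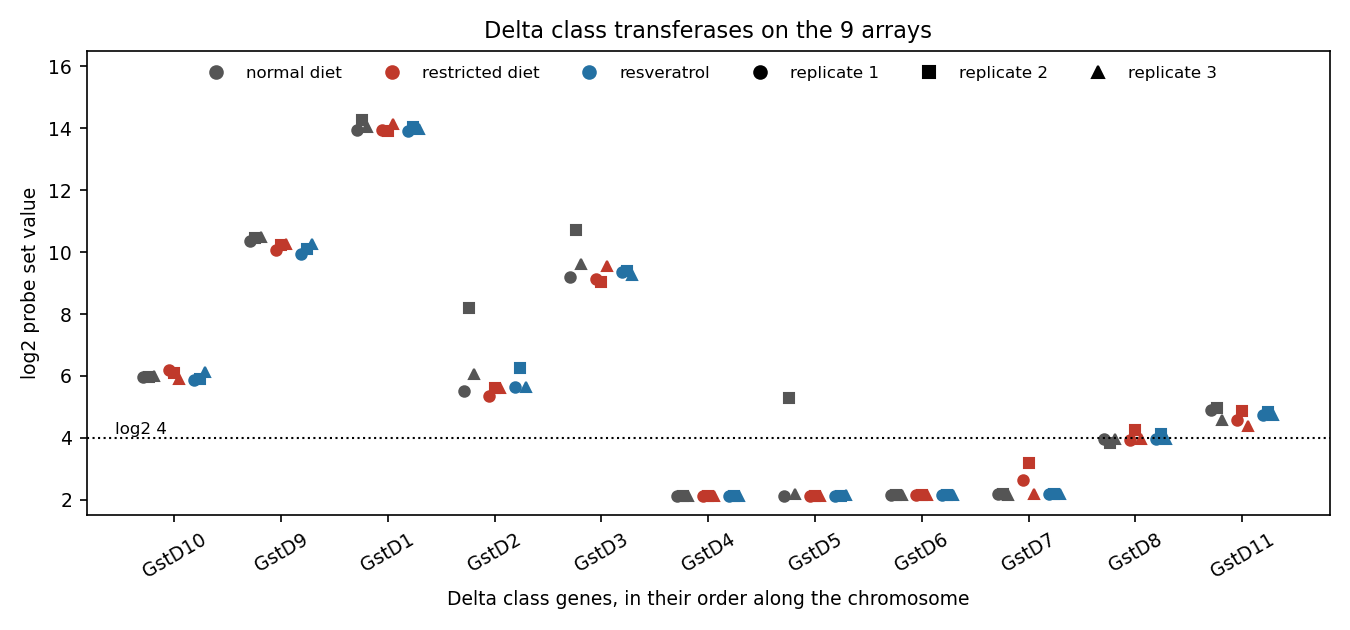
Log2 values (vertical axis) of the 11 Delta class genes on the 9 arrays, in their order along the chromosome, coloured by diet with a symbol per replicate; the dotted line is log2 4. Normal-diet replicate 2 stands above the other arrays for GstD2, GstD3 and GstD5, and GstD4 and GstD6 lie at the bottom of the scale throughout.

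In the Omega class, GstO1 (CG6662) and GstO2 (CG6673) did not pass for the restricted diet, at 0.20 (95% interval from -0.04 to 0.44) and -0.03 (95% interval from -0.17 to 0.10). The probe sets of GstO2 disagreed: the brighter one gave -0.03, and the other went from between 9.18 and 9.39 to between 9.53 and 9.63, a difference of 0.27 that was not tested. GstO3 passed, as given above.

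GstS1 (CG8938), the Sigma enzyme abundant in flight muscle, was at 12.07, 12.02 and 11.90 on the normal diet, 11.71, 11.71 and 11.76 on the restricted diet, and 11.78, 11.81 and 12.03 with resveratrol. The restricted arrays were below all others. The difference of -0.27 ± 0.08 (SE; adjusted p = 0.0526) missed the threshold narrowly. The mean of the 4 muscle markers was lower on the same arrays, and 2 of the 4 passed as lower. A link between them and GstS1 was not tested.

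All 4 Theta genes had positive restricted-diet differences, as did 41.2% of all features, and 1 passed (5.27% of all features rose). GstT3 (CG1702) was at 10.08, 9.50 and 10.01 on the normal diet and at 10.42, 10.20 and 10.19 on the restricted diet, which did not overlap. Its difference of 0.40 ± 0.16 (SE) did not pass (adjusted p = 0.116) and was 0.22 without normal-diet replicate 2. GstT1 (CG30000) and its neighbour GstT2 (CG30005) had 0.13 and 0.18 with overlapping groups.

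The Zeta genes GstZ1 (CG9362) and GstZ2 (CG9363) lie side by side and had differences of 0.02 and -0.41. Neither passed, with 95% intervals from -0.43 to 0.47 and from -0.91 to 0.09. GstZ2 was lower on all 3 restricted arrays than on any normal array, most of all on restricted-diet replicate 1, at 7.65.

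The resveratrol arrays were compared with the normal arrays to see what the added compound changes on unrestricted food. No transferase passed. Of the 29 tested, 0 rose and 0 fell in limma, against 7 (24.1%) at an unadjusted p under 0.05. Of all features 0.0453% passed as higher, 0.181% as lower and 0.227% either way, and 9.74% had an unadjusted p under 0.05. The median difference was -0.04, and -0.01 over all features.

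The closest to the threshold was GstE11, which stood at 10.30, 10.36 and 10.38 on the normal diet and at 9.97, 9.80 and 9.99 with resveratrol. The groups did not overlap, and the restricted arrays, at 10.06, 10.33 and 10.20, lay mostly between them. The resveratrol difference was -0.43 ± 0.08 (SE; adjusted p = 0.117).

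GstE3 had the largest positive difference with resveratrol, 0.55 ± 0.13 (SE; adjusted p = 0.197), with a 95% interval from 0.24 to 0.86. The 3 resveratrol arrays were above the 3 normal arrays, as they were for GstO3 (0.22), GstE13 (0.22) and GstE9 (0.18). Below the normal arrays were GstE11, GstD9 and GstO2 (-0.16). The dimmer probe set of GstO2 went the other way, from between 9.18 and 9.39 on the normal diet to between 9.48 and 9.58 with resveratrol, a difference of 0.21 that was not tested. Groups that did not overlap made up 4 of 29 higher (13.8%) and 3 lower (10.3%), where all features gave 6.35% and 9.09%. GstD2 and GstD3 had differences of -0.74 and -0.50 with resveratrol, which were 0.05 and -0.06 without normal-diet replicate 2.

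The 2 treatments share the normal-diet arrays, so their differences for a gene are not independent. Side by side, restricted diet and resveratrol gave 1.27 and 0.55 for GstE3, 0.68 and 0.11 for GstE5, and 0.65 and 0.16 for GstE7. They gave 0.41 and 0.18 for GstE9, 0.51 and 0.22 for GstO3, 0.45 and 0.24 for GstT4, and 0.28 and 0.22 for GstE13. For GstE5 the resveratrol interval ran from -0.04 to 0.26, which lies below the restricted-diet interval of 0.53 to 0.83.

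**Figure D4:**
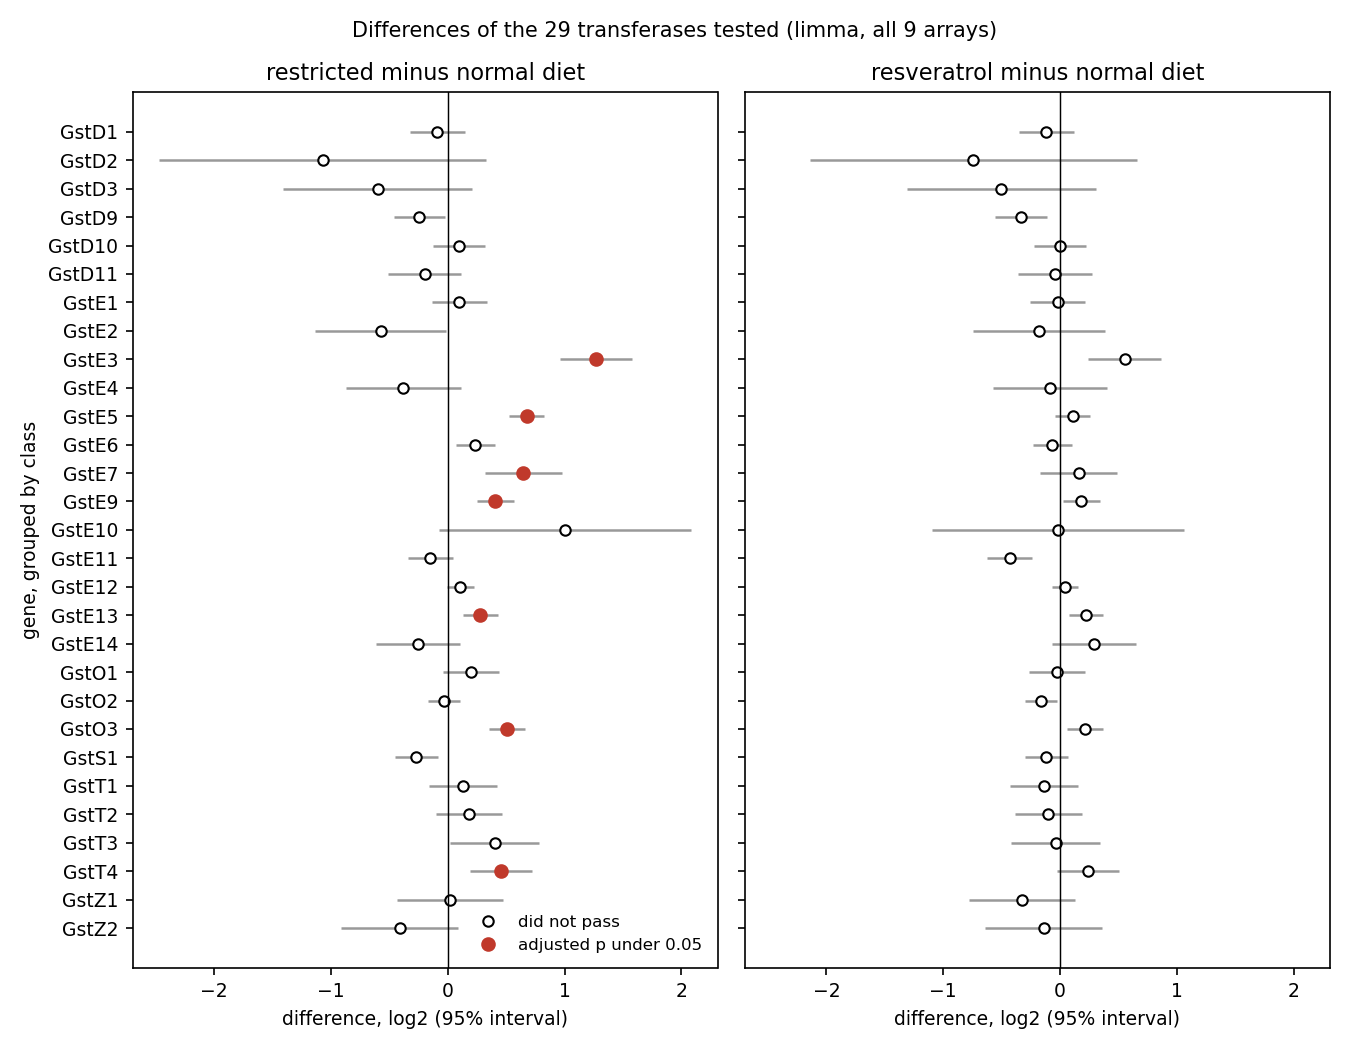
Log2 differences from the normal diet (horizontal axis) with 95% intervals for the 29 transferases tested, restricted diet on the left and resveratrol on the right; filled points passed at an adjusted p under 0.05. The 7 filled points are all on the left and above 0, and the widest intervals belong to GstD2, GstD3 and GstE10.

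The restricted diet and resveratrol were also compared directly. GstE5 was higher on the restricted diet by 0.57 ± 0.07 (SE; adjusted p = 0.0276) and GstE3 by 0.72 ± 0.13 (SE; adjusted p = 0.0450). These were the 2 of 29 genes that passed (6.9%), with none lower. Of all features 0.453% passed as higher, 2.09% as lower and 2.54% either way. At an unadjusted p under 0.05 there were 9 of 29, where 25.2% of all features reached it. The groups did not overlap for 11 genes higher on the restricted diet and 3 lower, where all features gave 9.83% and 21.2%. The median difference of the 29 was 0.13, and that of all features was -0.04. Both calls were fragile. GstE3 kept its call without normal-diet replicate 2 or 3 and lost it without any 1 of the other 7 arrays (0.65 to 0.79). GstE5 lost it without normal-diet replicate 1, restricted-diet replicate 1 or 3, or resveratrol replicate 2 or 3 (0.54 to 0.62).

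Among those that did not pass, GstE10 was higher on the restricted diet by 1.02 (95% interval from -0.06 to 2.10) and GstE7 by 0.49 (adjusted p = 0.0965). GstE14 was at 4.97, 5.10 and 5.42 on the restricted diet and at 5.85, 5.43 and 5.85 with resveratrol. These groups did not overlap, and the difference was -0.55 ± 0.16 (SE; adjusted p = 0.0925). For GstE13 the treatments differed by 0.06, with a 95% interval from -0.09 to 0.20.

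Genes that supply, use or control glutathione were taken from a list of 27, of which 19 were tested. On the restricted diet 4 rose, 3 fell and 12 did not pass, where 5.27% of all features rose and 12.9% fell. The share that fell was near that of all features. The median difference was 0.08, and that of all features was -0.05. With resveratrol, and between the 2 treatments, 0 of the 19 passed in limma.

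Cth, known in flies as Eip55E and the enzyme that releases cysteine from cystathionine, rose from 9.95, 9.97 and 10.08 on the normal diet to 10.52, 10.44 and 10.41 on the restricted diet. The groups were well apart, and the rise was 0.46 ± 0.09 (SE; adjusted p = 0.0166). It no longer passed without normal-diet replicate 1 or 2 or restricted-diet replicate 1 (0.43 to 0.44). Gclm, the modifier subunit of the ligase that makes the first bond of glutathione, fell from 8.69, 8.49 and 8.36 to 8.18, 8.22 and 8.09. This was a fall by 0.35 ± 0.10 (SE; adjusted p = 0.0423), and it passed only with normal-diet replicate 3 left out among the 9 fits that omit an array (-0.26 to -0.38 in the others). The catalytic subunit Gclc had -0.13 and did not pass (adjusted p = 0.161). With resveratrol Gclm was at 7.98, 8.17 and 7.99, also below the normal arrays. That difference of -0.47 did not pass in limma (adjusted p = 0.143).

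Of 4 genes for gamma-glutamyl transpeptidases, which break glutathione down outside the cell, 1 rose and 2 fell. Over all features 5.27% rose and 12.9% fell, and these 4 are part of the list of 27. Ggt-1 rose by 0.76 ± 0.20 (SE; adjusted p = 0.0386), from between 8.67 and 9.00 to between 9.41 and 9.81. CG4829 and CG1492 fell by 0.32 (adjusted p = 0.0434) and by 0.57 (adjusted p = 0.0432). The restricted arrays of all 3 genes were on 1 side of the normal arrays. Leaving out normal-diet replicate 1 or 2, restricted-diet replicate 1 or 3, or resveratrol replicate 2 ended the calls of all 3, with adjusted p from 0.0647 to 0.130. Normal-diet replicate 3 also ended those of Ggt-1 and CG4829 (0.77 and -0.35), restricted-diet replicate 2 those of CG4829 and CG1492 (-0.30 and -0.56), and resveratrol replicate 1 that of CG1492 (-0.57).

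Among other enzymes that use glutathione, Glo1, the glyoxalase that clears methylglyoxal, rose by 0.40 ± 0.08 (SE; adjusted p = 0.0172), and no longer passed without normal-diet replicate 1 or restricted-diet replicate 1 (0.40 and 0.39). The microsomal transferase Mgstl had 0.21 (adjusted p = 0.0814). se, an Omega transferase that makes an eye pigment precursor, had -0.42 (adjusted p = 0.0942). It lies between GstO3 and GstO2 in the gene table, of which GstO3 rose.

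Of the regulators, Keap1 rose from 7.94, 8.09 and 7.97 on the normal diet to 8.40, 8.70 and 8.51 on the restricted diet, by 0.54 ± 0.09 (SE; adjusted p = 0.0126). Resveratrol stood at 8.21, 8.09 and 8.22, overlapping the normal arrays. cnc itself lay between 13.04 and 13.07 on all 9 arrays. The identical value 13.0552318 recurred on arrays of every diet, so these values may not follow cnc RNA, which was not tested. The small Maf partner of Cnc, maf-S, had -0.19 on the restricted diet (adjusted p = 0.0563) and -0.19 with resveratrol (adjusted p = 0.336 in limma).

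**Figure D5:**
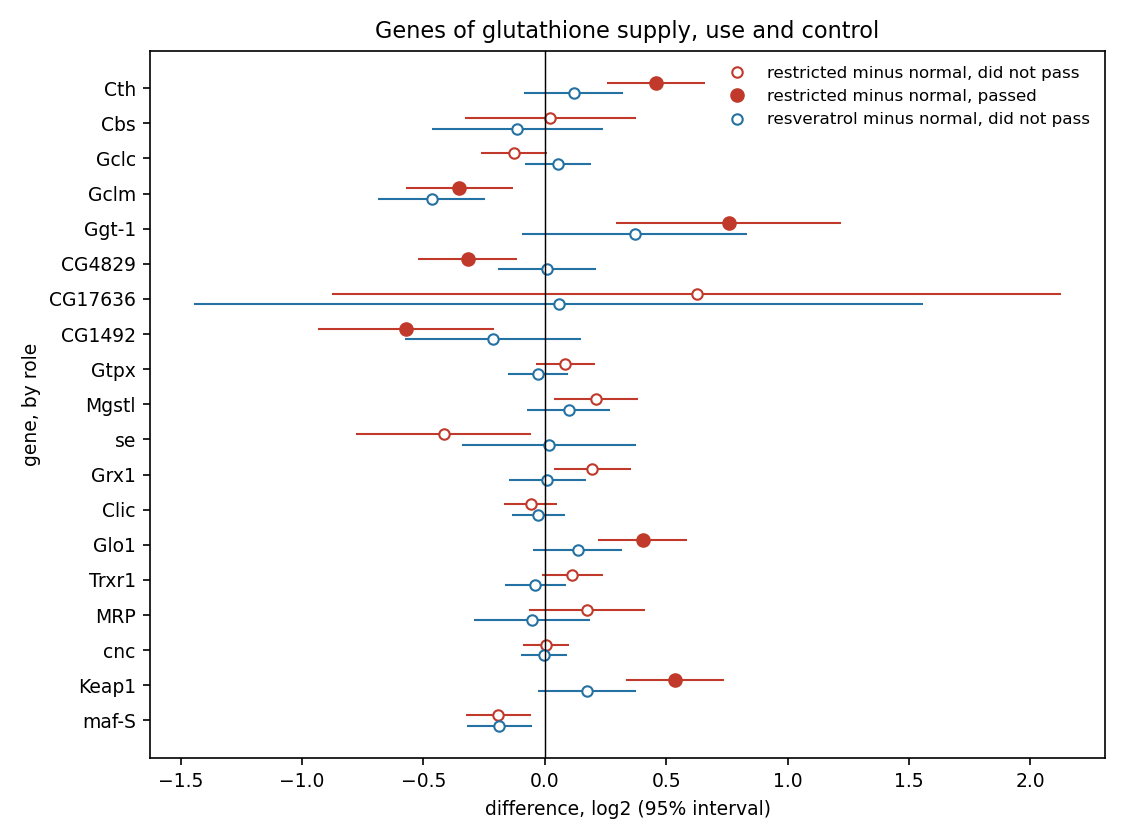
Log2 differences from the normal diet (horizontal axis) with 95% intervals for the 19 tested genes of glutathione supply, use and control, restricted diet in red and resveratrol in blue; filled points passed. Cth, Ggt-1, Glo1 and Keap1 are filled above 0 and Gclm, CG4829 and CG1492 below it, and no blue point is filled.

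Replicates agreed well for most of the family. The SD within a diet, pooled over the 3 diets, was under 0.2 for 20 of the 29 genes tested, with a median of 0.15. It was lowest for GstE12, at 0.04, and highest for GstD2, at 0.84. GstE12 stood high on the scale, at 14.48, 14.48 and 14.49 on the normal diet, and its restricted arrays, at 14.54, 14.60 and 14.63, were all higher. The difference of 0.11 did not pass (adjusted p = 0.144).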

How the data were processed

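The authors deposited log2 probe set values made with GCRMA, per the submitters' processing notes, for 9 arrays; the sources used here give neither its version nor which arrays it took together. That the scale is log2 follows from the range, 2.12 to 16.39. GCRMA widens differences near its floor. The table held 18952 probe sets, of which 183 controls were left out. Probe sets were tested if 3 or more of 9 arrays reached log2 4, which left 9401. The probe set with the highest mean stood for a gene, leaving 8822 features. Symbols came from the platform annotation, updated by gene identifier through the RefSeq table of Release 6 plus ISO1 MT, which held all 34 transferases and was used for names and neighbours only.

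All 9 arrays were fitted in limma 3.58.1 (R 4.3.3), 1 mean for each diet and no block, two-sided, with 6 residual and 1.81 prior degrees of freedom. p-values were adjusted over all 8822 features. With 3 replicates per diet, the number of arrays limits the precision. The fit was tested on simulated data. Alternatives were 9 other settings and leaving out each array.

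The members and lists were chosen with earlier results of these data known, so no list is tested, and counts of calls are set beside the shares of all features. Values are given in full for members that passed in any comparison and for the 3 largest differences of each comparison that did not. Others given in full, such as GstD1, GstD9, GstE2, GstE6, GstE11, GstE14, GstS1 and GstT3, were chosen after their values were seen. Of the pathway list, genes that passed and Gclc, Gclm, Keap1 and cnc were named by rule; se, Mgstl and maf-S were added. Deviations from the diet means had correlations from -0.33 to 0.40 for replicates with the same number, and from -0.37 to 0.41 for others. With 3 arrays per diet these cannot decide whether the numbers pair the arrays, which stays unknown. How far probes for similar neighbouring transferases also bind each other's transcripts was not tested.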

Additional observations from a re-analysis of the deposited data

How the results depend on the processing

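Restricted against normal diet, 7 transferases rose. With no filter on dim features 4 did, with the replicate block 4, and with only the 2 diets fitted 5 of the 7. The count was between 4 and 8 over the 9 other settings and between 3 and 8 with 1 array left out. GstE3, GstE5 and GstO3 passed in all 9 other settings and all 9 fits without an array. GstE9 passed in all 9 other settings and 8 of those fits. GstE13, GstE7 and GstT4 passed in 7, 6 and 6 of the 9 other settings. GstS1 made 1 member lower with all 9 arrays at log2 4 or more, with limma's trend and robust options, and with only the 2 diets fitted, and between 0 and 1 did with 1 array left out. The members' median difference was between 0.0614 and 0.113 with 1 array left out. All features called went from 1604 to 598 with no filter and 931 with the block, and between 332 and 1671 without an array. Resveratrol against normal diet called no transferase in any setting; all features called were 20, and 10 with no filter, 47 with trend and robust options, 4 with only those 2 diets and 1 with the block, and between 2 and 9 without an array. The members' median was -0.0873 after quantile normalization and between -0.0772 and -0.0038 without an array. GstD2 turned to 0.055 without normal-diet replicate 2 and was between -1.27 and 0.055 without an array. Restricted diet against resveratrol, the count of 2 members became 1 after quantile normalization or median centring, 0 with no filter, with only the 2 diets or with the block, 4 with trend and robust options, and between 0 and 3 without an array. All features called, 224, became 37 after quantile normalization, 20 after centring, 8 with no filter, 339 with trend and robust options, 1 with only the 2 diets and 0 with the block, and between 0 and 290 without an array; the members' median was 0.17 after centring and between 0.11 and 0.18 without an array. cnc turned to -0.0021 for the restricted diet after quantile normalization. The replicate block treats equal numbers as pairs, which the labels do not state. The causes of these shifts were not tested. Levels under log2 4 limit what can be read for GstD4 to GstD8. Whether the high level of GstE12 narrows its differences was not tested.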
